A study of Mus musculus with 2 samples.

Results

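Genes of metallothionein and zinc handling were followed in the mouse uterus before implantation, in 1 VEGF-normal (Dox+) and 1 VEGF-repressed (Dox−) library. The 9 genes were selected by symbol (Mt1, Mt2, Mtf1, Slc30a1, Slc30a2, Slc39a1, Slc39a6, Slc39a8 and Slc39a14), with the copy numbers of both libraries already known, so their differences are descriptions and not tests. Rows were matched for 7 of the 9 among the 14678 genes of the table. Mt1 and Slc30a2 were not analysed here. All 7 genes had at least 200 combined copies, as did 6547 genes in all.

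Females of both groups were double transgenic (VEGFtetO/tetO/beta-AKtg/wt), with tet operators in the VEGF promoter and a tetR-Krab repressor expressed from a β-actin transgene. Dox+ mice ate chow with doxycycline, a tetracycline that binds divalent metal ions and releases the repressor. The colony was kept on doxycycline food. Dox− mice were adult littermates from which doxycycline had been removed when young, weeks before collection, and VEGF was repressed. Uteri were collected at gestation day 2.5, and RNA of 3 uteri was pooled per library. The drug and the level of VEGF therefore changed together and cannot be told apart. With 1 library per condition there was no replicate check, and the pooled uteri were not separate measurements.

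Metallothioneins are small cysteine-rich proteins that bind zinc and copper and buffer free metal in the cytosol. Their genes are switched on by zinc through the zinc finger factor MTF-1, which binds metal response elements in their promoters, and they are also induced by glucocorticoids. Zinc enters the cytosol through transporters of the ZIP (Slc39) family and leaves it, to the outside or into organelles, through those of the ZnT (Slc30) family. In the mouse, metallothionein transcripts are known to be abundant in the decidua that forms after implantation.

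The metal response element was looked for in the promoters, since Mt2 and Slc30a1 are both known targets of MTF-1 and had very different ratios in these libraries. Its core was searched as TGCACNC or TGCGCNC on both strands in the 250 bases before each RefSeq start. Both sequences are given 5′ to 3′ on the strand of the gene, with the cores in capitals.
Mt2: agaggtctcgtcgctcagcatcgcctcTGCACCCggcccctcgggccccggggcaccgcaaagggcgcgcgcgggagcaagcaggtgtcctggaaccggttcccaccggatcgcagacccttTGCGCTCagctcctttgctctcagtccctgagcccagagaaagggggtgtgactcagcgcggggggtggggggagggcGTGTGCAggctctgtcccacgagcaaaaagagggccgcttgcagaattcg
Slc30a1: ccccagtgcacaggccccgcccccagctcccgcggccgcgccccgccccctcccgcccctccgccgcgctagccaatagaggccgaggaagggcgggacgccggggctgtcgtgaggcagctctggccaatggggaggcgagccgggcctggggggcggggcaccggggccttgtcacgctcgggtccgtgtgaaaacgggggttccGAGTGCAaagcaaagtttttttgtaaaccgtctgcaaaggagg
The windows are chr8:94172368-94172617 (Mt2) and chr1:191906531-191906780 (Slc30a1), both on the plus strand of GRCm38.p6. The Mt2 window held 3 cores. They lay 223 to 217 and 128 to 122 bases before the start on the strand of the gene, and 50 to 44 bases before it on the other strand. The Slc30a1 window held 1 core on the other strand, 43 to 37 bases before the start. No core overlapped another. At least 1 core was present in 21.4% of 32851 promoter windows, and 3 or more in 1.26%. The windows of Mtf1 and Slc39a1 had no core, and of the 2 windows of Slc39a8 1 had a core. The window of Mt1 had 1 core and that of Slc30a2 had 2. Of other transporters described here, Slc30a4 had 2 cores, Slc30a5 had 1, and Slc30a6 and Slc39a7 had none. Slc39a6 and Slc39a14 had no entry. A match of letters describes the window and does not show binding. Whether the number of cores had a part in the ratios was not tested.

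Mt2 (gene 17750, NM_008630), a metallothionein made in most tissues, was lower by far in Dox−. From Dox+ mice 8168 copies were counted and from Dox− mice 660, where a copy is 1 sequence tag assigned to the gene. In TPM, the copies scaled to 1000000 clean tags, the level was 1365 (95% exact Poisson interval 1335 to 1394) in Dox+ and 113 (104 to 122) in Dox−. Mt2 in Dox− thus stood at 8.28% of its Dox+ level, 12.1-fold lower (95% interval 11.2 to 13.1), with a log2 ratio of -3.59. These intervals cover counting error only. By the number of copies Mt2 stood at rank 71 of the table in Dox+ and at rank 1135 in Dox−. The gene lies at chr8:96696518-96697467 on the plus strand of NCBIM37, with Mt1 5521 bases downstream. Tags that matched more than 1 gene were not counted by the authors, and how many tags close paralogs such as Mt1 and Mt2 shared is not known.

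**Figure D1:**
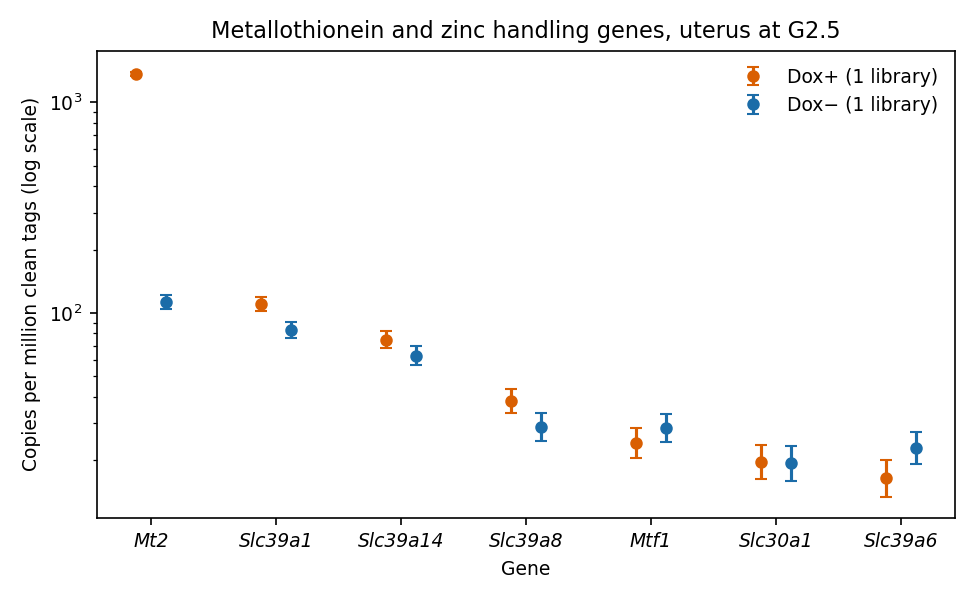
Level of each gene in TPM, copies scaled to 1000000 clean tags (vertical axis, log scale), in the Dox+ and the Dox− library. Points are single libraries and bars are 95% exact Poisson intervals. Mt2 stood at 1365 in Dox+ and 113 in Dox−, while the pairs of the other 6 genes lay close together.

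The fall of Mt2 was the 14th in size among the 6547 genes with at least 200 combined copies. Of the 1598 genes with at least 1000 combined copies, 5 had a larger fall. Counted in TPM, Mt2 fell by 1252 from Dox+ to Dox−. Of all genes, Ctla2a, Tmsb4x, Rps2, Rplp1 and Rpl13a, named after their values were seen, had a larger difference in TPM below Dox+. Ctla2a had a log2 ratio of -4.61, and the other 4, which encode an actin-binding peptide (Tmsb4x) and ribosomal proteins, had ratios between -0.78 and -0.38. The genes with at least 1000 combined copies whose log2 ratio was nearest to that of Mt2 were Hoxa11as (-3.50), Pkdcc (-3.41), Hdc (-3.78), Tcf23 (-3.25) and Calb1 (-3.22). Hdc, histidine decarboxylase of histamine synthesis, had 1928 copies in Dox+ and 137 in Dox−. Calb1, the calcium-binding protein calbindin, had 1753 and 184. Pkdcc, a secreted kinase, had 2259 and 207, and Tcf23, a helix-loop-helix factor, 1170 and 120. Hoxa11as, with 1869 and 161, is an RNA antisense to Hoxa11. Tags of both strands were searched by the authors, and how those of this pair were assigned was not checked. The likeness to Mt2 rests on 2 libraries.

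**Figure D2:**
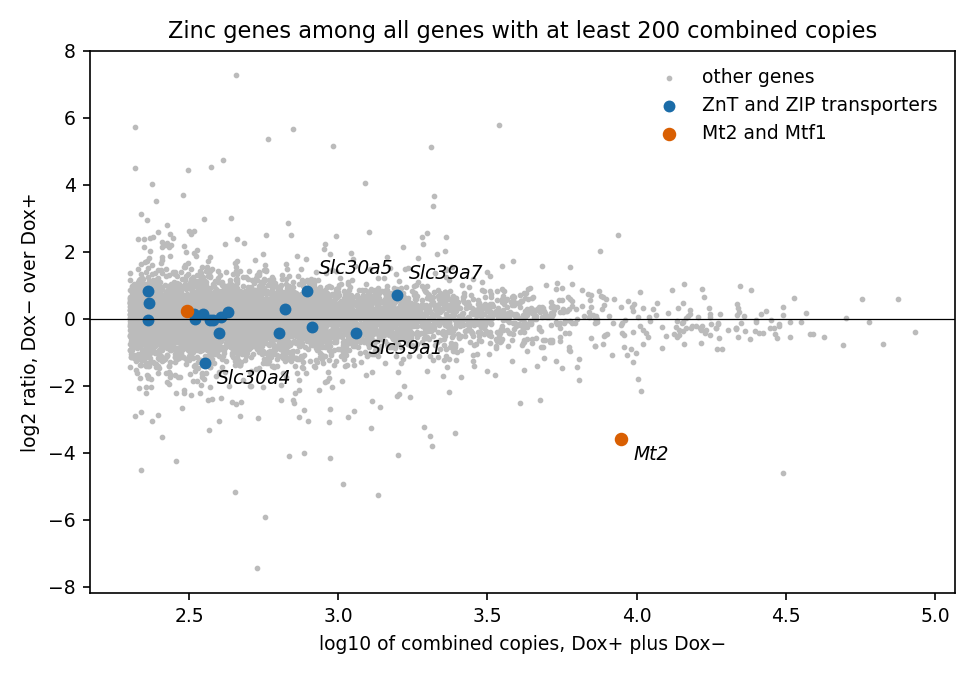
Log2 ratio of Dox− over Dox+ (vertical axis) against the log10 of combined copies (horizontal axis) for the 6547 genes with at least 200 combined copies. Mt2, at -3.59 with 8828 combined copies, stands below nearly all genes of its abundance, and the transporters lie between -1.33 and 0.84.

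A gene was counted as past the fold when it had at least 200 combined copies and a fold change of at least 1.5. In all, 14.7% of 6547 genes were lower and 15.2% higher in Dox− by this rule, and 5.62% and 4.61% at a fold change of at least 2. Of the 7 genes 1, Mt2, was lower at either fold and none was higher. Since the genes were chosen with these values known, nothing follows from this count.

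Mtf1 encodes MTF-1, the zinc sensor that activates the metallothionein genes. It had 145 copies in Dox+ and 167 in Dox−. The log2 ratio was 0.24 (95% interval -0.09 to 0.57), so a difference was not detectable at this depth. The activity of MTF-1 was not measured. Slc30a1 (ZnT1) exports zinc across the plasma membrane and is another target of MTF-1. It had 118 copies in Dox+ and 113 in Dox−, a log2 ratio of -0.03 (-0.41 to 0.36). The intervals of the sensor and of the exporter both included 0.

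Among 7 listed genes linked to MTF-1 in the literature, 6 were in the table and all 6 had at least 200 combined copies. Mt2 was lower, and the other 5 were not past the fold, with log2 ratios from -0.44 to 0.10. Sepw1, a selenoprotein with the most copies after Mt2, had 2203 copies in Dox+ and 1901 in Dox−, a log2 ratio of -0.18 (-0.27 to -0.09). Slc39a10, a zinc importer that MTF-1 is known to repress, had 195 and 185 copies. Gclc, of glutathione synthesis, had 154 and 111, and its log2 ratio of -0.44 had an interval of -0.80 to -0.08. The median log2 ratio of the list was -0.11 with Mt2 and -0.04 over the other 5 genes, beside 0.03 over all genes. Because the list mixes activated genes with the repressed Slc39a10, its median does not measure the activity of MTF-1.

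Slc39a1 (ZIP1, chr3:90052094-90057534), a zinc importer of the plasma membrane found in most cells, had 661 copies in Dox+ and 485 in Dox−. Its log2 ratio was -0.41 (-0.58 to -0.24), a fold change of 1.33. Slc39a14 (ZIP14, chr14:70703274-70751232), which takes up iron and manganese as well as zinc, had 448 and 366 copies, a log2 ratio of -0.26 (-0.46 to -0.05). Slc39a8 (ZIP8, chr3:135488243-135551536), which carries a like range of metals, had 230 and 168 copies, a log2 ratio of -0.42 (-0.71 to -0.13). All 3 importers were lower in Dox−, each by less than 1.5-fold and with an interval below 0.

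Slc39a6 (ZIP6), an importer first described as estrogen-regulated, went the other way. It had 99 copies in Dox+ and 134 in Dox−, a log2 ratio of 0.47 (0.09 to 0.86). Its fold change of 1.39 was below the fold of 1.5. The interval of Slc39a6 overlapped none of those of Slc39a1, Slc39a8 and Slc39a14. The importers were chosen with these values known, so this is a description and not a test.

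Levels of different genes were compared per kb of the longest GENCODE transcript. In Dox+ the order was Mt2 with 2454 TPM per kb, Slc39a1 with 46.7, Slc39a14 with 15.2, Slc39a8 with 10.9, Slc39a6 with 4.26, Slc30a1 with 3.76 and Mtf1 with 3.17. The counting intervals of the last 3 overlapped from neighbour to neighbour, and all others were apart. In Dox− Mt2 still stood first, with 203, and Slc39a1 followed with 35.1. There Slc39a8 (8.14) and Slc39a6 (5.91) overlapped, as did Mtf1 (3.74) and Slc30a1 (3.69). Without the division by length the first 4 genes kept their order in both libraries, and Mtf1 followed them. The methods describe tag profiling, while the labels mention fragmented mRNA. If each transcript gave tags from a single site, the copies would not depend on length. The order by copies would then be the one to read. Division by length would then overstate short transcripts such as that of Mt2 (556 bases). By copies Mt2 stood at 1365 TPM and Slc39a1 at 110 in Dox+, a far smaller gap than per kb. Over 6460 genes, Spearman's rho between transcript length and combined copies was -0.21, a description across genes.

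All transporters of both families were then followed. Of 11 listed ZnT exporters 7 were in the table and 6 had at least 200 combined copies. Of these 1 was lower, 2 were higher and 3 were not past the fold, with a median log2 ratio of 0.14. Of 14 listed ZIP importers 13 were in the table and 12 had at least 200 combined copies. Of these 1 was higher, none was lower and 11 were not past the fold, with a median of 0.03. Together 1 of 18 transporters was lower and 3 of 18 were higher, beside 14.7% and 15.2% of all genes.

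Slc30a4 (ZnT4, chr2:122506969-122528399), which loads zinc into vesicles and whose loss leaves mouse milk poor in zinc, had 257 copies in Dox+ and 100 in Dox−. It was 2.51-fold lower (95% interval 1.98 to 3.19), the one transporter past a fold change of 2. Slc30a5 (ZnT5, chr13:101572604-101603382) had 285 copies in Dox+ and 499 in Dox−, 1.79-fold higher (1.55 to 2.08). Its partner Slc30a6 (ZnT6, chr17:74794972-74823569) had 84 and 146 copies, 1.78-fold higher (1.35 to 2.36). ZnT5 and ZnT6 form a heterodimer that carries zinc into the early secretory pathway, and both subunits were higher in Dox− by a like factor. Slc39a7 (ZIP7, chr17:34165212-34168635), which releases zinc from the endoplasmic reticulum, had 605 and 964 copies, 1.63-fold higher (1.47 to 1.81). Slc30a7 (ZnT7), which forms homodimers in the Golgi, had 301 and 362 copies, a log2 ratio of 0.30 (0.08 to 0.53). Slc30a9 had 191 and 182 copies, a log2 ratio of -0.04 (-0.34 to 0.27).

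**Figure D3:**
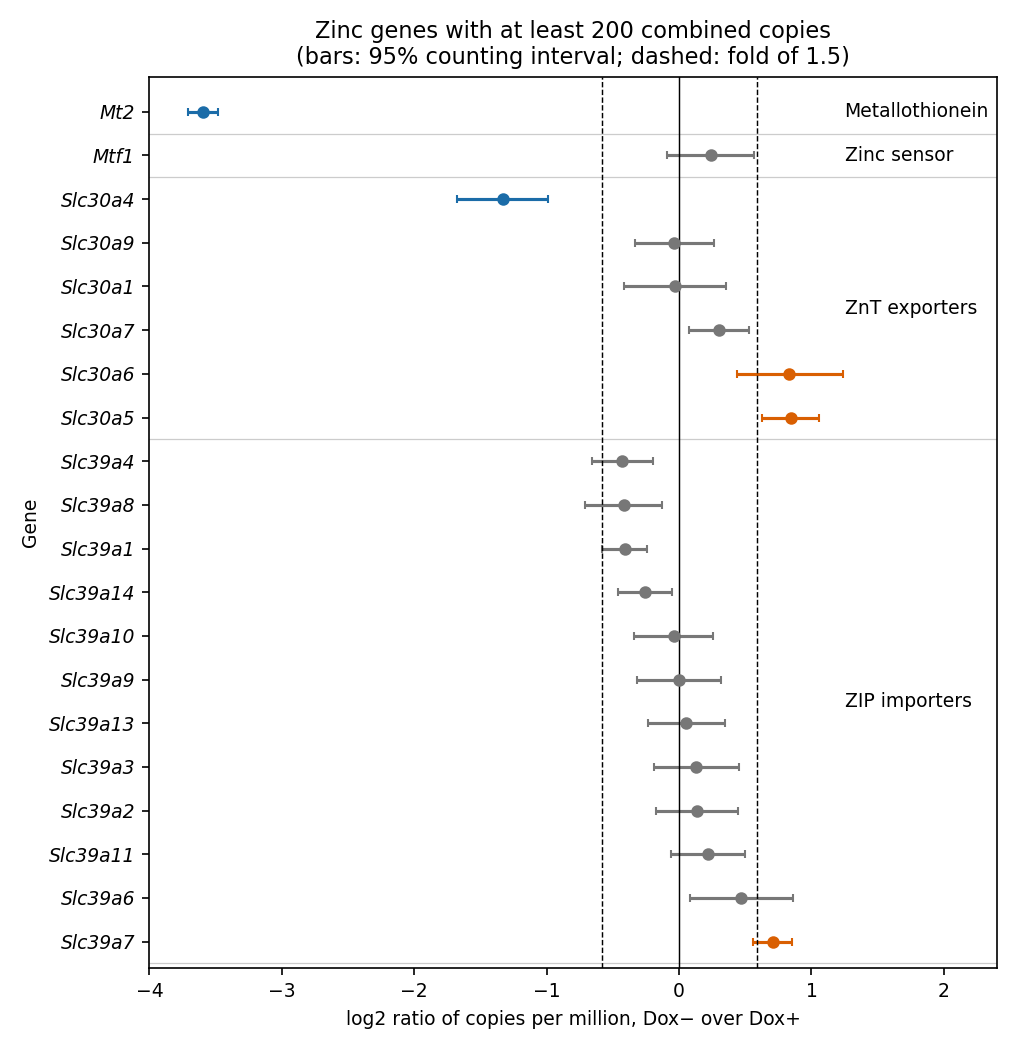
Log2 ratio of TPM, Dox− over Dox+ (horizontal axis), of the zinc genes with at least 200 combined copies. Bars are 95% counting intervals and dashed lines mark a fold of 1.5. Mt2 and Slc30a4 lie left of the lines (blue), Slc30a5, Slc30a6 and Slc39a7 right of them (orange), and the other genes between them (grey).

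When the transporters were divided by the membrane they are known for, a grouping made after the values were seen, the 3 higher genes were in 1 group. The 2 groups leave out Slc30a1, Slc30a9 and Slc30a4, the transporter that was lower. Because the groups were made with the ratios known, their counts and medians are descriptions, and nothing follows from the contrast. Of 7 transporters of the endoplasmic reticulum and Golgi (Slc30a5, Slc30a6, Slc30a7, Slc39a7, Slc39a9, Slc39a11 and Slc39a13) 3 were higher and 4 were not past the fold, with a median log2 ratio of 0.30, beside 15.2% higher and a median of 0.03 over all genes. Of 8 ZIP importers of the plasma membrane (Slc39a1, Slc39a2, Slc39a3, Slc39a4, Slc39a6, Slc39a8, Slc39a10 and Slc39a14) none was past the fold. Their median was -0.15, with 5 genes below 0 and 3 above. Slc39a4 (ZIP4), the importer of dietary zinc in the intestine, had 368 copies in Dox+ and 267 in Dox−, a log2 ratio of -0.43 (-0.66 to -0.20). Slc39a12 had 17 copies in Dox+ and 2 in Dox−, too few for a fold change here.

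The ZnT genes summed to 213 TPM in Dox+ and 248 in Dox−, a log2 ratio of 0.22 (0.11 to 0.33). This sum rested on Slc30a5, since the ratio was -0.022 without it. Slc30a5 made up 22.4% of the ZnT copies in Dox+ and 34.4% in Dox−, while the share of Slc30a4 was 20.2% and 6.90%. The sum of ZIP genes was 588 TPM in Dox+ and 602 in Dox−, a log2 ratio of 0.03 (-0.03 to 0.10). Without Slc39a7 it was -0.16. The share of Slc39a7 among ZIP copies was 17.2% in Dox+ and 27.4% in Dox−, and that of Slc39a1 was 18.8% and 13.8%. By copies, Slc39a7 stood at 101 TPM in Dox+ and 165 in Dox−, and Slc39a1 at 110 and 83.0. Per kb, the values were 45.0 and 73.5 for Slc39a7 and 46.7 and 35.1 for Slc39a1. The totals of both families differed far less between the libraries than Mt2 did. Mt2 gave 61.6% of the copies of the 25 zinc genes in the table in Dox+ and 11.0% in Dox−.

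**Figure D4:**
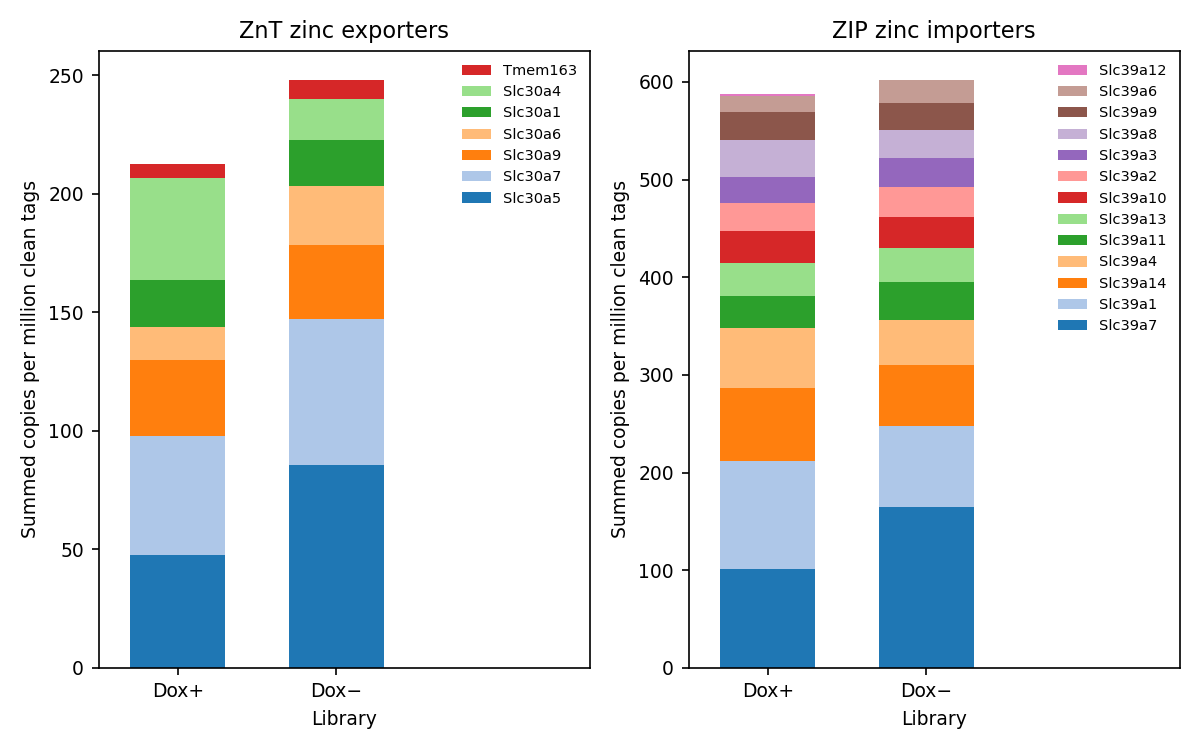
Summed TPM (vertical axis, from 0) of the ZnT exporters and the ZIP importers in the Dox+ and the Dox− library, divided by gene. The ZnT sum was 213 and 248 and the ZIP sum 588 and 602, with a larger part from Slc30a5 and Slc39a7 in Dox−.

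Other zinc routes had few copies. Gpr39, a receptor for extracellular zinc, had 30 copies in Dox+ and 65 in Dox−. Mcoln1, a lysosomal channel that passes zinc, had 64 and 92, and Trpm7, a channel kinase for divalent cations, had 65 and 51. None of the 3 reached 200 combined copies.

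Over the whole table, the copies summed to 4437506 in Dox+ and 4218459 in Dox−, or 74.1% and 72.2% of the clean tags. Vegfa, the repressed gene, had 247 copies in Dox+ and 125 in Dox−, a log2 ratio of -0.95 (-1.27 to -0.63). Markers of the uterine compartments were present in both libraries, and none of the lists of epithelium, stroma, smooth muscle and endothelium had a gene at 0. The epithelial list summed to 1301 TPM in Dox+ and 1860 in Dox−, with 5 of 11 genes higher and 2 lower. The stromal list summed to 9206 and 10220. Without Col1a1, an omission chosen after the values were seen, it summed to 5361 and 4455, so the direction of the sum rested on that gene. Of its 11 genes 1 (Lum) was higher and 4 were lower, 3 of them past a fold of 2 (Hand2, Hoxa10 and Hoxa11). The median log2 ratio was -0.43, with 8 genes below 0 and 3 above. The smooth muscle list summed to 6506 and 4489, with 3 of 7 genes lower, and the endothelial list to 232 and 156, with 2 of 4 lower. Over all genes 14.7% were lower and 15.2% higher, and 5.62% were lower past a fold of 2. The other lists summed to 88.4 and 124 for leukocytes, 270.5 and 199 for adipocytes, 648 and 234 for skeletal muscle and 11.0 and 35.6 for blood, where 1 gene was at 0 in Dox+. The skeletal muscle sum rested on Acta1, with 3385 of its 3881 copies in Dox+ and 1241 of 1368 in Dox−. Whether these differences had a part in the ratios of the zinc genes was not tested. In a pooled tissue, fewer cells of a type and less RNA per cell cannot be told apart.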

How the data were processed

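Tag profiles of 2 pooled uterine RNA libraries, 1 Dox+ and 1 Dox− at G2.5, were used, and groups were taken from the sample titles. According to the methods, the authors removed adaptor-only, low quality and single-copy tags, aligned the clean tags to mouse reference mRNAs (mm9) and counted unambiguous tags per gene. CASAVA is named in the submitters' processing notes, and the aligner is not given in the sources used here. The deposited counts are tags assigned to each gene without normalization. Their sum over the table used here is below the total of unambiguous tags that the study gives, and the difference was not resolved. The deposited TPM scale each copy number to 1000000 clean tags of its library, with no correction for transcript length. The deposited ratios, log2 ratios, P-values and FDR of the authors were not used. The labels mention fragmented mRNA while the methods describe tags, which was not resolved.

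The clean tag totals implied by the TPM (5985925 and 5844314) were the library sizes, and all TPM values of genes with a tag matched them within rounding. Log2 ratios were taken without a pseudocount, with exact Clopper-Pearson intervals of 95% for the split of a gene's tags, and levels have exact Poisson intervals. Intervals cover counting error only, and tags are not independent molecules. A count of 3 or fewer (0.501 or 0.513 TPM) was set to 3 in the counts of genes past the fold. No test between conditions was possible. The members and gene lists were chosen with earlier results of these data known. The text names the members, the 3 genes of each list with the most copies, those past a fold change of 2, and the 5 genes nearest to Mt2, while lists of cell markers are given as counts and sums. Genes named beyond this rule were chosen after their values were seen. A symbol outside the table was looked up by RefSeq gene ID. Positions and the longest coding transcript of each gene are from GENCODE on NCBIM37 (mm9) and promoters from RefSeq on GRCm38.p6.

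Alternatives were TMM factors of edgeR, median-ratio size factors, the sum of copies, a pseudocount of 1, other filters, the mean in place of the median, and an FDR below 0.05 in the Audic-Claverie test, which compares the libraries and not the conditions. The computation was tested on simulated data. Python 3.11.15, numpy 2.4.6, scipy 1.17.1, pandas 2.3.3, matplotlib 3.10.9, R 4.3.3 and edgeR 4.0.16 were used.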

Additional observations from a re-analysis of the deposited data

How the results depend on the processing

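All 28 recomputed ratios of the 7 genes, under 3 other scalings and a pseudocount of 1, stayed within the 95% counting interval of the value given. The scalings shifted every log2 ratio by -0.03 to 0.04. The counts of genes past the fold followed the filter on combined copies. At a fold of 1.5, 994 genes were higher and 961 lower at 200 copies or more, 2385 and 2256 from 20 copies, 2869 and 2830 with no filter, and 209 and 215 from 1000 copies. At a fold of 2, 302 were higher and 368 lower, 988 and 1089 from 20 copies, 1320 and 1411 with no filter, and 56 and 79 from 1000 copies, and 496 were higher from 100 copies. Of the transporters, 1 was higher and 0 were lower from 1000 copies at a fold of 1.5, and 0 were lower at a fold of 2, since fewer genes pass that filter. With no filter 2 transporters were lower at either fold, as Slc39a12 then counts. The summed ZnT ratio went from 0.22 to -0.022 without Slc30a5, and the ZIP ratio from 0.03 to -0.16 without Slc39a7. The median of the transporters was 0.03, and 0.13 over the 12 genes that the table assigns to zinc ion transport, an alternative chosen after seeing the data. Also chosen after seeing the data was leaving out Mt2, which moved the median of the glucocorticoid-inducible genes from -0.30 to -0.017 and that of the MTF-1 linked genes from -0.11 to -0.04. With 1 library per condition, the variation between pools is unknown and no replicate could be left out. No paired analysis was possible because each condition had 1 library.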

Other observations

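Metallothionein genes are induced by glucocorticoids, and a list of 18 genes known to be so induced was therefore read beside Mt2. Among the 17 that had a row, 12 had at least 200 combined copies, and 5 of these, Mt2 included, were lower, 2 higher and 5 not past a fold of 1.5, where 14.7% of all genes were lower and 15.2% higher. The 5 lower genes and the 2 higher ones were all past a fold of 2, as were 5.62% and 4.61% of all genes. Beside Mt2 they were Sgk1, a kinase of epithelial sodium transport, with 1198 copies in Dox+ and 187 in Dox− (6.25-fold), Fkbp5, a cochaperone of steroid receptors, with 190 and 45 (4.12-fold), Tsc22d3, which encodes GILZ, with 561 and 198 (2.77-fold), and Errfi1, an inhibitor of EGF receptors, with 859 and 391 (2.14-fold). The 2 higher genes were Lcn2, a siderophore-binding lipocalin, with 27 and 935 copies, and the transcription factor Cebpb, with 258 and 692. Nfkbia, the NF-κB inhibitor, had 726 and 745. Of the genes with fewer copies, Zbtb16 had 30 in Dox+ and 2 in Dox−, Ddit4 14 and 46, Cdkn1a 38 and 69, Dusp1 82 and 74 and Pdk4 12 and 16. The median log2 ratio of the list was -0.30 with Mt2 and -0.02 without it, beside 0.03 over all genes. With Mt2 the median lay between Klf9 (-0.58) and Angptl4 (-0.02), so leaving out any of the lower genes would move it as much. Without Mt2, 4 of 11 genes (36.4%) were lower and 2 (18.2%) higher, all past a fold of 2. Many of these genes also respond to other steroids and stresses.

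Genes of steroid reception and supply were read as well. The glucocorticoid receptor gene Nr3c1 had 134 copies in Dox+ and 171 in Dox− (log2 ratio 0.39, 0.05 to 0.72). Pgr had 687 and 1251 copies and Esr1 165 and 262, 1.87-fold and 1.63-fold higher. Hsd11b2, which inactivates glucocorticoids, had 3890 and 5475 copies, a log2 ratio of 0.53, and Hsd11b1, which regenerates them, had 46 and 10. Over the 4 genes of this list with enough copies, 2 were higher and none was lower, with a median of 0.61, beside 15.2% higher, 14.7% lower and a median of 0.03 over all genes. Whether steroid reception or supply had a part in the ratios of Mt2 or the glucocorticoid-inducible genes was not tested.

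Copper, the other metal that metallothioneins bind, is handled by 17 listed genes, of which 13 had at least 200 combined copies. Of these 2 were higher, 2 lower and 9 not past the fold, with a median log2 ratio of 0.11, near the shares of 15.2% higher and 14.7% lower over all genes. Sod1, Atox1 and Commd1, with the most copies, had log2 ratios of 0.46, 0.20 and 0.06. The higher genes were Cp, which encodes ceruloplasmin, with 73 copies in Dox+ and 260 in Dox− (3.65-fold), and Steap3, and the lower ones were Sco2 and Heph. Of the metalloreductases with fewer combined copies, Steap4 had 105 and 12 and Steap2 had 37 and 149. The importer Slc31a1 had 404 and 443 copies.

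Of 15 listed genes of electrophile and metal stress, 11 had at least 200 combined copies, 4 were higher and 1 lower, with a median of 0.41, beside 15.2% higher and 14.7% lower over all genes. Gsr, glutathione reductase, had 229 copies in Dox+ and 870 in Dox− (3.89-fold), Slc7a11, the cystine importer, 77 and 229 (3.05-fold), Sqstm1 682 and 1301, and Prdx1 1588 and 2661. Gclm, the modifier subunit of glutathione synthesis, was lower with 177 and 108. Of the genes with fewer copies, Hmox1, the heme oxygenase induced by heavy metals, had 70 and 86, Nfe2l2 32 and 119, Nqo1 34 and 18 and Hspa1a 66 and 59. Gpx1 and Txnrd1, also high in copies, had log2 ratios of -0.37 and 0.41. Among 92 genes that the table assigns to response to metal ion, a term added after seeing the data, 22 (23.9%) were lower and 14 (15.2%) higher, with a median of -0.06, beside 14.7% and 15.2% of all genes.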
